A study of Mus musculus with 36 samples.

Results

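The 10 genes described here carry the insulin signal from the cell surface to the nucleus and bring glucose into the cell. They were chosen by name, with earlier results of these data known: the insulin receptor Insr, its adaptors Irs1 and Irs2, the phosphoinositide 3-kinase subunit Pik3r1, the kinase Akt2, the transcription factor Foxo1 and the glucose transporters Slc2a1, Slc2a2, Slc2a3 and Slc2a4 (GLUT1 to GLUT4). The symbols were matched to Ensembl identifiers, and all 10 were present in each of the 6 count tables, 10 of 54838 genes in most tables (55487 in the morula and 51912 in the round spermatid table). In GRCm38 coordinates they lie at chr8:3122061-3279617 (Insr), chr1:82233101-82291416 (Irs1), chr8:10984681-11008458 (Irs2), chr13:101680563-101768217 (Pik3r1), chr7:27591552-27640826 (Akt2), chr3:52268336-52353221 (Foxo1), chr4:119108711-119137983 (Slc2a1), chr3:28697903-28731359 (Slc2a2), chr6:122727809-122801640 (Slc2a3) and chr11:69942539-69948188 (Slc2a4).

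Insulin binds its receptor, a tyrosine kinase, which phosphorylates the IRS adaptors. These recruit PI3-kinase, whose lipid product brings AKT to the membrane, where AKT2 sets GLUT4 vesicles moving to the surface of muscle and fat cells and keeps FOXO1 out of the nucleus. In liver, which takes up and releases glucose through GLUT2, FOXO1 drives genes of glucose production and insulin restrains it.

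All mice were C57BL/6 wildtype by the labels (C57BL/6N by the study's methods). Male mice, 6 weeks old when the diets began, were fed a high-fat diet (HFD) or a low-fat diet (LFD) for 2 weeks. Mature cauda sperm were taken by swim-up from such males (3 HFD and 3 LFD libraries). Morulae, embryos of compacting cells, were grown from oocytes fertilized in vitro (3 libraries for each paternal diet), and round spermatids, haploid germ cells of the testis, came from a density gradient (6 libraries). Liver, epididymal white adipose tissue (eWAT) and gastrocnemius muscle (6 libraries each) were from sons of HFD-fed males that were themselves kept on chow, and had been classed as glucose tolerant (HFDt) or intolerant (HFDi). The column names of the 3 tissue tables and of the round spermatid table hold only a number. A library of these is therefore known by its tissue alone, and neither HFDt against HFDi nor diet in round spermatids was compared here. Diet was compared in sperm and in morula, and the tissues, which the study did not compare with each other, were compared for the members' levels. The labels do not say that libraries came from separate animals or embryo pools, so p-values measure the spread between these samples, which may be technical.

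Total counts per library were 2560219 to 4062321 in sperm, 11471251 to 12153141 in morula, 20138842 to 31056066 in round spermatids, 2036237 to 2552454 in liver, 1338149 to 4055537 in eWAT and 369772 to 2749920 in gastrocnemius. Levels are CPM, a gene's counts relative to its library's total at a common scale, adjusted by the trimmed mean of M values (TMM), unless said to be on library totals. Within each group every pair of libraries differed beyond counting noise, the lowest chi-square per degree of freedom being 3.5. The 5 hepatocyte markers summed to 39900 to 61300 CPM on library totals in liver, against 36.6 to 590 in eWAT and 0.728 to 3.15 in gastrocnemius. The 5 adipocyte markers summed to 22200 to 36900 CPM in eWAT (19.2 to 74.2 in liver and 29.1 to 244 in gastrocnemius), and the 5 skeletal muscle markers to 38400 to 81500 CPM in gastrocnemius (10.6 to 73.3 in liver and 38.8 to 1180 in eWAT). One eWAT library, of 3512177 counts, stood apart: it held 12.4 CPM of the sperm protamine Prm1 (at most 1.07 in the other eWAT libraries) and the least of the fat hormone gene Adipoq, 2490 CPM against 4020 to 5140. Where leaving it out changed the call of a member or the spread of a member in eWAT by over 1.5 times, the value without it is given too.

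The promoters of Slc2a2 and Slc2a1 are shown because these genes lie at the ends of the pattern described next: Slc2a2 was far higher in liver than in eWAT and gastrocnemius, while Slc2a1 passed the test in no pair of tissues. Each window runs from 250 bases before to 50 bases after the transcription start (RefSeq, GRCm38.p6, plus strand; Slc2a2 at chr3:28697653-28697952 and Slc2a1 at chr4:119108495-119108794). Capitals mark the GC box GGGCGG, the TATA box TATAAA and the CCAAT box CCAAT, read on both strands.
Slc2a2: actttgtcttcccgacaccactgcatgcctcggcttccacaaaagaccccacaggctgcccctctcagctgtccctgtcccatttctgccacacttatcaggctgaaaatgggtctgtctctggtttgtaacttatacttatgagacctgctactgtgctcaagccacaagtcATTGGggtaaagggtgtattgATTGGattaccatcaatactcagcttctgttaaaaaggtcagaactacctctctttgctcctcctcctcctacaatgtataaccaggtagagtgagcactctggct
Slc2a1: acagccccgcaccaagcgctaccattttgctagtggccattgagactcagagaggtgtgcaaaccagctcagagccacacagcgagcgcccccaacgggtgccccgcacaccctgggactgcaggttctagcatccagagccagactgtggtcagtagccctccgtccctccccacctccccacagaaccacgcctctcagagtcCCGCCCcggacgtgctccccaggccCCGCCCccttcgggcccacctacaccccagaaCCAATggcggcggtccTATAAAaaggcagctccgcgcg
The Slc2a1 window held 2 GC boxes, 1 CCAAT box and 1 TATA box, and 65.3% of its bases were G or C. Its GC boxes lie before the annotated transcription start, and its CCAAT and TATA boxes after it. The Slc2a2 window held neither a GC box nor a TATA box, had 2 CCAAT boxes, both read on the minus strand, and was 48% G or C. Of 32851 promoter windows of this length, 35.7% held a GC box, 13.6% a TATA box, 37.4% a CCAAT box and 3.65% the forkhead core GTAAACA. No member window held that core. Promoters were found for 7 of the 10 members (11 windows), among which the GC-richest were those of Pik3r1 (75.7%), Irs2 (72%) and Irs1 (71.3%). These matches describe letters in a window and were not tested against the levels.

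The glucose transporters parted the 3 tissues most sharply. Slc2a2, the low-affinity transporter of liver, stood between 286 and 347 CPM in the 6 liver libraries (median 318). It had no count in any gastrocnemius library and 0 to 3.52 CPM in eWAT (median 1.92, 57 counts in all). Liver lay above both other tissues with no overlap. Against gastrocnemius, where a count of 0 allows 3 counts over the 6 libraries together (0.389 CPM), the level in liver was at least 821-fold higher, and edgeR's quasi-likelihood test gave an adjusted p of 3.9e-13. Against eWAT the summed counts differed 153-fold (exact 95% interval 118 to 202, counting error only), with an edgeR adjusted p of 3.24e-13. The hepatocyte gene albumin (Alb) stood at 15.8 to 209 CPM in eWAT. The library with no Slc2a2 count held the least Alb and also had the lowest total, 1338149 counts. In the other eWAT libraries Slc2a2 counts per 1000 Alb counts ran from 15.7 to 64.5. In the summed eWAT libraries there were 20.6 Slc2a2 counts per 1000 Alb counts, against 8.54 in liver. The part of hepatocyte RNA in the eWAT counts of Slc2a2 was not tested. The call of Slc2a2 as higher in eWAT than in gastrocnemius (edgeR adjusted p = 0.000254, at least 5.37-fold) rests on those 57 counts.

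Slc2a4, the transporter that insulin moves to the surface of muscle and fat cells, gave the mirror image. It reached 277 to 374 CPM in gastrocnemius (median 328) and 20.4 to 51 CPM in eWAT (median 29.8), and liver held 2 counts in all. The 3 tissues did not overlap. The summed counts were 10.7-fold higher in gastrocnemius than in eWAT (exact 95% interval 9.93 to 11.6), for which the fitted log2 fold change of eWAT over gastrocnemius was -3.37 ± 0.21 (SE, edgeR adjusted p = 4.49e-12). Against liver, the ratio was 1850 for gastrocnemius (interval 512 to 15300) and 173 for eWAT (47.7 to 1430), with edgeR adjusted p of 1.36e-15 and 1.2e-12. Muscle actin (Acta1) ran from 20.3 to 244 CPM in eWAT against 10100 to 20200 in gastrocnemius. The eWAT library with the least Acta1 was the one that stood apart, and it held 25.5 CPM of Slc2a4. The part of muscle RNA in the eWAT counts of Slc2a4 was not tested.

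Slc2a3, the high-affinity transporter of neurons and early embryos, was low in all 3 tissues. It stood at 5.28 to 8.37 CPM in eWAT (median 7.27), at 2.5 to 12.9 CPM in gastrocnemius (median 10.6) and at 4 counts in all in liver. Liver lay below both other tissues with no overlap, the ratio of summed counts being 19 for eWAT (exact 95% interval 7.3 to 70.5) and 28.4 for gastrocnemius (10.7 to 107). The edgeR adjusted p were 4.17e-07 and 9.11e-08. Between eWAT and gastrocnemius the libraries overlapped and the test was not passed (-0.48 ± 0.34, edgeR adjusted p = 0.212). Leukocyte markers, whose cells also use GLUT3, summed to 780 to 1380 CPM on library totals in eWAT, 35.6 to 56.8 in gastrocnemius and 35.8 to 118 in liver. In bulk tissue, fewer cells of a type and less RNA per cell cannot be told apart.

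Slc2a1, the basal transporter of brain endothelium and most dividing cells, did not separate the tissues. Its range was 14.2 to 29.3 CPM in liver (median 18.2), 10.2 to 40.4 in eWAT (median 13.8) and 8.17 to 22.5 in gastrocnemius (median 17.7). All 3 ranges overlapped, and no edgeR adjusted p was below 0.504. The value of 40.4 CPM belongs to the eWAT library that stood apart, the other 5 lying at 10.2 to 14.8. Without that library, liver exceeded eWAT by 0.62 ± 0.23 (SE) on the log2 scale (edgeR adjusted p = 0.022). In the library left out the 5 haploid germ cell markers summed to 62.6 CPM on library totals, against 5910 to 7760 in round spermatids. Round spermatids, sequenced with another kit, held Slc2a1 at 0.425 to 0.59 CPM per kb of exon. The part of germ cell RNA in the value of 40.4 CPM was not tested. Endothelial markers summed to 594 to 756 CPM on library totals in eWAT, 107 to 198 in liver and 70.4 to 144 in gastrocnemius, and erythroid markers to 3480 to 11500, 258 to 407 and 333 to 500. The plot of the 4 transporters by library shows these levels beside those of germ cells and embryos.

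**Figure D1:**
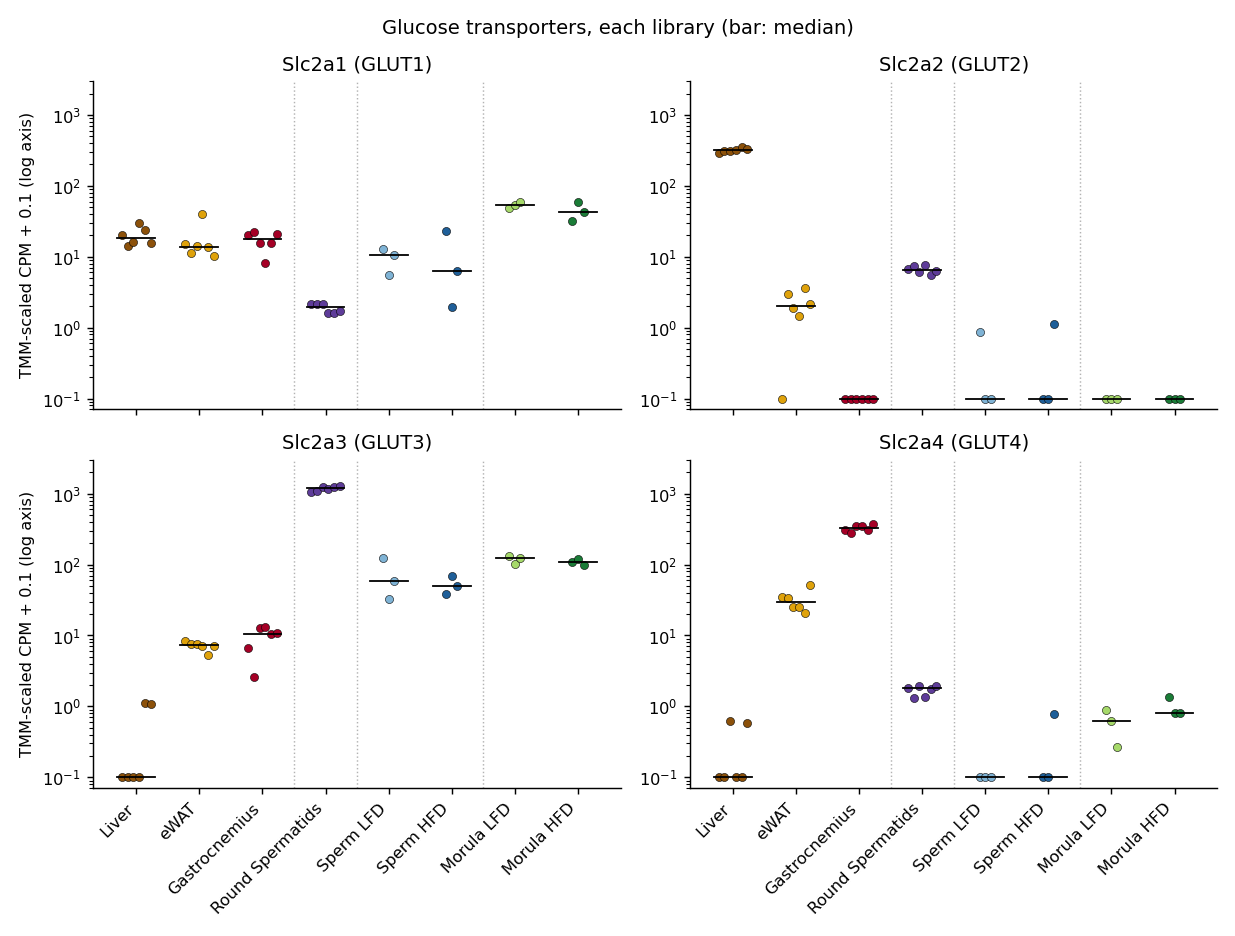
TMM-scaled CPM plus 0.1 on a log axis for the 4 glucose transporters; each point is a library, the bar is the group median, and points at the bottom are libraries without a count. Slc2a2 is high in liver (286 to 347 CPM), Slc2a4 in gastrocnemius (277 to 374) and Slc2a3 in round spermatids (1040 to 1300), while Slc2a1 overlaps among the 3 tissues. Dotted lines part library kits and experiments, across which levels were not tested.

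The genes that carry the signal differed between tissues by small factors. Insr, the receptor itself, had its highest median in liver, at 79.7 to 105 CPM (median 97.2), an order over eWAT that holds under TMM and turns on library totals (liver over eWAT -0.63, edgeR adjusted p = 0.00327). It stood at 41 to 106 CPM in eWAT (median 80.5) and at 33.2 to 67.6 CPM in gastrocnemius (median 52.8). Liver lay above gastrocnemius in every library, by 0.83 ± 0.20 on the log2 scale (1.78-fold, edgeR adjusted p = 0.000681). Liver and eWAT overlapped and did not pass the test (0.29 ± 0.18, edgeR adjusted p = 0.184), and eWAT exceeded gastrocnemius by 0.54 ± 0.19 (edgeR adjusted p = 0.0164), with overlap. That last call was lost in edgeR when mtDNA-encoded genes were left out (adjusted p = 0.0548) and when only these tissues were fitted (0.0624). Without the eWAT library that stood apart, which held the least Insr, it was 0.69 ± 0.17 (edgeR adjusted p = 0.00072), and liver over eWAT 0.13 ± 0.16 (adjusted p = 0.494).

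Irs1 and Irs2, which dock PI3-kinase to the receptor, had different orders. Irs1 was highest in gastrocnemius, at 16.6 to 68.9 CPM (median 55.4), against 9.05 to 27.7 in liver (median 17.2) and 13.6 to 33.2 in eWAT (median 26.4). The gastrocnemius minimum of 16.6 CPM, which makes the ranges overlap, was the library of lowest total, with 5 counts of Irs1. Liver lay below gastrocnemius by 1.42 ± 0.29 on the log2 scale (log2 fold change -1.42, edgeR adjusted p = 0.000174) and eWAT by 1.03 ± 0.28 (log2 fold change -1.03, edgeR adjusted p = 0.0024). Without that library the differences were -1.55 and -1.14. Liver and eWAT did not pass the test (-0.39 ± 0.28, edgeR adjusted p = 0.244).

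Irs2 was highest in eWAT, at 61 to 163 CPM (median 132). Gastrocnemius held 72.6 to 135 CPM (median 92.7) and liver 31.7 to 101 (median 62.4). The ranges overlapped throughout. Liver was lower than eWAT (-0.90 ± 0.25, edgeR adjusted p = 0.00308), missed the threshold against gastrocnemius (-0.55 ± 0.25, adjusted p = 0.0583) and passed it when only liver and gastrocnemius were fitted (-0.58, adjusted p = 0.0266). The lowest eWAT value, 61 CPM, was again the library that stood apart. Without it eWAT exceeded gastrocnemius by 0.50 ± 0.22 (edgeR adjusted p = 0.0494), against 0.34 ± 0.25 (adjusted p = 0.225) with it.

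Pik3r1 encodes the regulatory subunit that holds PI3-kinase to the adaptors. It was highest in eWAT, at 97 to 195 CPM (median 124), followed by liver at 56.5 to 103 (median 91.3) and gastrocnemius at 36 to 87.7 (median 60.2). eWAT lay above gastrocnemius in every library (1.08 ± 0.23, 2.11-fold, edgeR adjusted p = 0.000306) and above liver with overlap (liver over eWAT -0.65 ± 0.22, edgeR adjusted p = 0.0144). Liver and gastrocnemius did not differ by this test (0.42 ± 0.23, edgeR adjusted p = 0.118).

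Akt2, the AKT form tied to glucose uptake, was lowest in liver. There 5 libraries lay at 13.8 to 25.5 CPM and the sixth, of 2036237 counts, at 44.5 (median 15). eWAT held 33.7 to 85.1 CPM (median 67.5) and gastrocnemius 32.6 to 60.5 (median 52.2), so the 1 high liver library overlaps both. Liver was lower than eWAT by 1.62 ± 0.27 on the log2 scale (log2 fold change -1.62, edgeR adjusted p = 1.76e-05) and lower than gastrocnemius by 1.22 ± 0.28 (log2 fold change -1.22, edgeR adjusted p = 0.00063). Between eWAT and gastrocnemius the difference was 0.40 ± 0.26 (edgeR adjusted p = 0.182), and 0.55 (edgeR adjusted p = 0.0432) without the eWAT library that stood apart.

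Foxo1, the factor that AKT keeps out of the nucleus, varied least between tissues among the signalling genes. It stood at 47.2 to 67.4 CPM in liver (median 57), at 61.4 to 122 in eWAT (median 79.6) and at 36.5 to 104 in gastrocnemius (median 67.7). Liver was lower than eWAT (-0.60 ± 0.20, edgeR adjusted p = 0.0119), with a small overlap, and neither tissue passed the test against gastrocnemius (liver -0.34 ± 0.21, adjusted p = 0.148; eWAT 0.26 ± 0.20, adjusted p = 0.261).

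**Figure D2:**
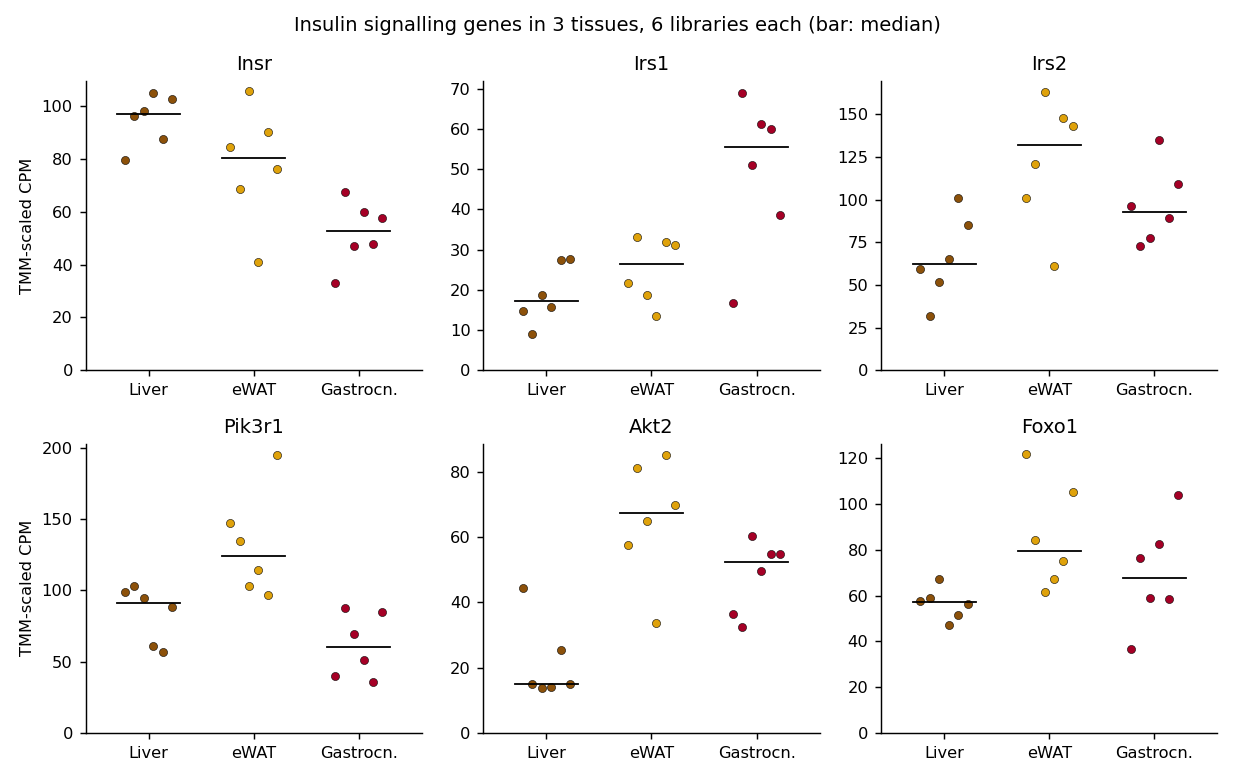
TMM-scaled CPM (linear axis from 0) of the 6 signalling genes in liver, eWAT and gastrocnemius, 6 libraries each, with the median as a bar. Insr in liver lies wholly above gastrocnemius, Pik3r1 in eWAT wholly above gastrocnemius, and Akt2 in liver has 1 library at 44.5 CPM above the other 5.

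Over the members, 2 were called higher and 4 lower in liver than in gastrocnemius, where 66.4% of all 10851 genes tested were called (34.9% higher and 31.4% lower). The members' median log2 difference was -0.45 (0.06 over all genes tested), and 4 members did not overlap between these tissues (42.9% of all genes). Liver against eWAT had 1 higher and 6 lower (61.6% of all genes called, 28.9% higher and 32.6% lower), with medians of -0.63 and -0.07 and 3 members without overlap (41.9% of all genes). eWAT against gastrocnemius had 3 higher and 2 lower (67.4% of all genes called, 41.1% higher and 26.3% lower), with medians of 0.30 and 0.35 and 2 members without overlap, 1 in each direction (43% of all genes, 26.8% higher and 16.3% lower). With a log2 fold change of at least 1 also asked for, 1 member was higher and 4 lower in liver than in gastrocnemius (28% and 24.3% of all genes), 1 was higher and 3 lower in liver than in eWAT (44.1% of all genes in either direction) and 2 were higher and 2 lower in eWAT than in gastrocnemius (33.1% and 18.2%). The shares of members called are near those of all genes. Slc2a2, Slc2a3 and Slc2a4 passed the filter on low counts through the tissues in which they are high, so they had to differ and these counts support nothing about the list. The plot of differences gives the fitted values with their intervals, which for the 6 signalling genes reach 1.62 on the log2 scale (Akt2, liver below eWAT) and for Slc2a1 at most 0.26.

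**Figure D3:**
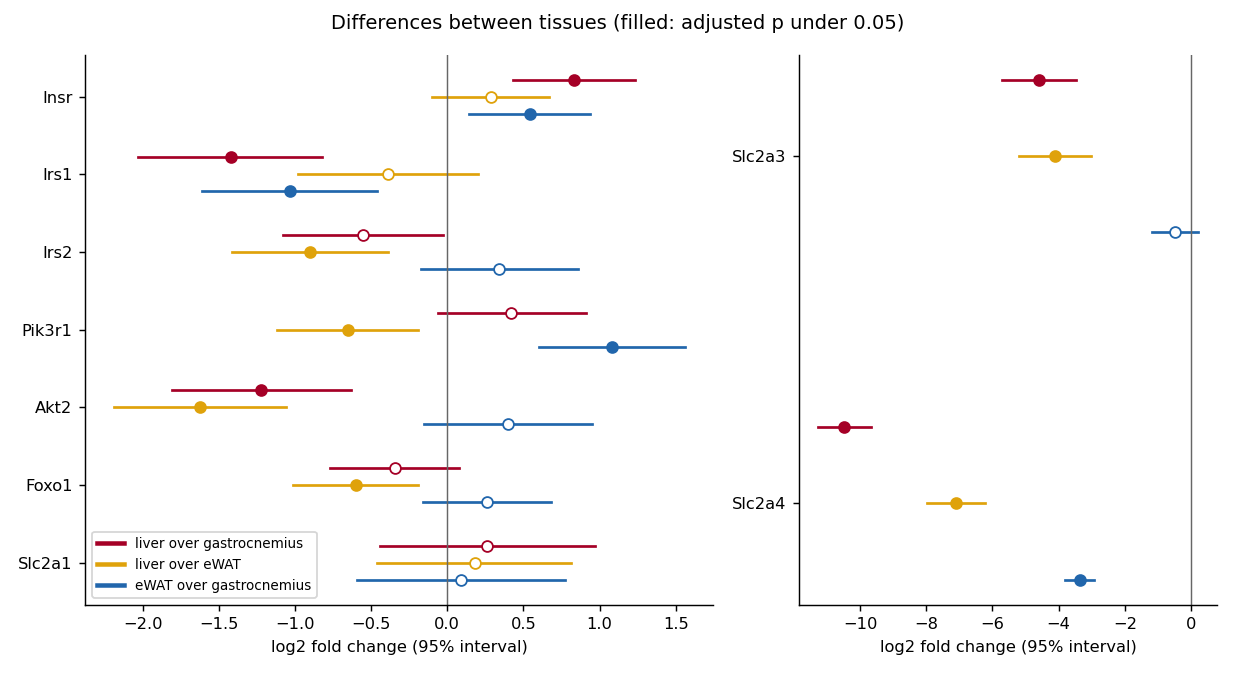
Fitted log2 fold changes with 95% intervals (edgeR) for 9 members in the 3 tissue comparisons; filled points have an adjusted p under 0.05. The left panel spans about -2 to 1.6, the right panel (Slc2a3 and Slc2a4) reaches -10.47; Slc2a2 is left out because gastrocnemius holds no count of it.

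The scale between eWAT and the other tissues depends on the normalization. TMM factors were 1.44 to 1.70 in eWAT, 0.759 to 0.847 in liver and 0.744 to 0.853 in gastrocnemius. On library totals the median of all genes moved from -0.071 to -0.996 for liver over eWAT and from 0.354 to 1.316 for eWAT over gastrocnemius. The calls over all genes went from 3138 higher and 3542 lower to 1406 and 6995 for liver over eWAT, and from 4465 and 2853 to 7357 and 1227 for eWAT over gastrocnemius. The 10 members moved the same way. Besides Insr, Slc2a1 then turned from higher to lower in liver than in eWAT (-0.78, edgeR adjusted p = 0.0358), Slc2a3 from lower to higher in eWAT than in gastrocnemius (0.50), and the lead of gastrocnemius over eWAT in Irs1 shrank to -0.09 (edgeR adjusted p = 0.785). The 7 calls between liver and eWAT, and those of Slc2a2, Slc2a4, Pik3r1 and Insr between eWAT and gastrocnemius, kept their direction and their side of the threshold. Each tissue is a table of its own, and whether the tissues were sequenced together is not given in the labels.

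The spread among the 6 libraries of a tissue was given as the SD of log2 CPM (prior count 2) and ranked among all genes passing the filter in that tissue. The transporters that mark a tissue were among its steadiest genes. Slc2a2 in liver had an SD of 0.114, at percentile 2.3 of 6462 genes, and Slc2a4 in gastrocnemius an SD of 0.14, at percentile 3.8 of 5031. Counting alone gives 0.06 and 0.089, at mean counts of 584 and 434 per library. The percentiles were not matched for count, and genes with fewer counts carry more counting noise. Insr (SD 0.163, percentile 8.8) and Foxo1 (0.167, percentile 9.6) were steady in liver as well.

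The adaptors and Akt2 were at the other end in liver. Akt2 had an SD of 0.639 (percentile 96.1), Irs2 0.592 (93.9) and Irs1 0.587 (93.6), each with a highest library about 3 times its lowest, against counting SDs of 0.253, 0.144 and 0.271 and a median over all genes of 0.318. The 2 liver libraries of highest total held the most Irs1 (27.5 and 27.7 CPM) and the most Irs2 (101 and 85.1), while the high Akt2 value was in another. In gastrocnemius Irs1 was the most variable member (SD 0.667, percentile 95.2), its lowest library having 5 counts, and Irs2 was near the middle (0.308, percentile 41). In eWAT Slc2a1 was the most variable member (0.713, percentile 93.8) and Slc2a3 the steadiest (0.233, percentile 21.4). Without the library that stood apart Slc2a1 had an SD of 0.233 (percentile 31.5), and the SD went from 0.463 to 0.237 for Insr, from 0.503 to 0.259 for Irs2 and from 0.468 to 0.218 for Akt2. Slc2a4 was then the most variable member (0.494, percentile 84.7). How far this spread follows HFDt and HFDi was not tested, since the columns do not name the class.

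**Figure D4:**
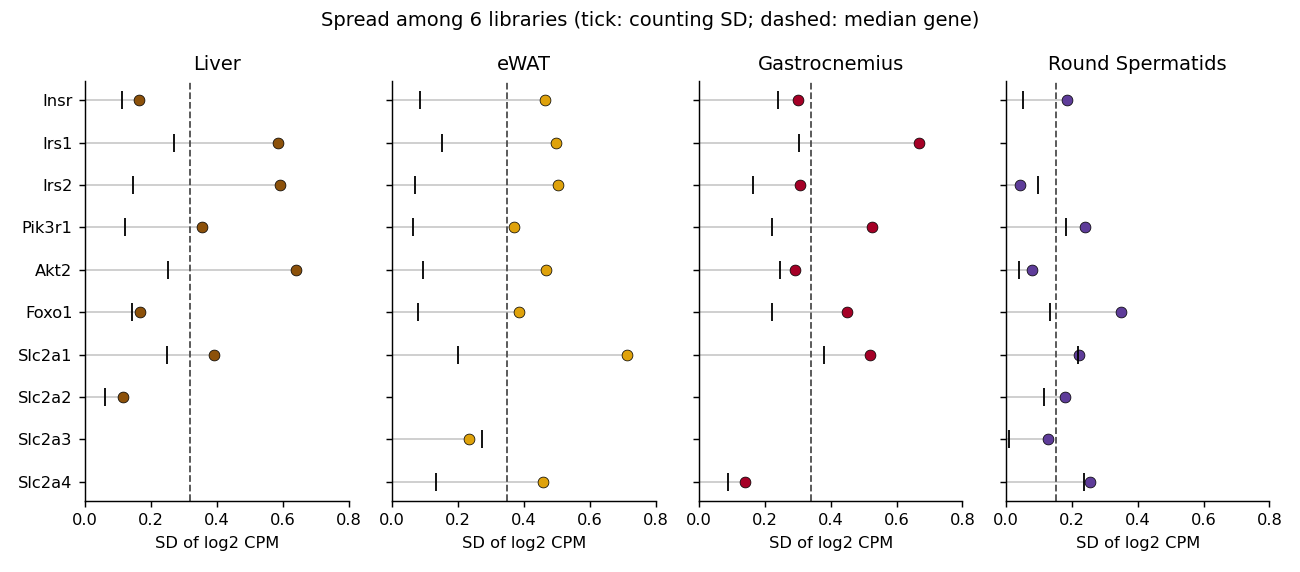
SD of log2 CPM (x axis) among the 6 libraries of each tissue or cell type for each member that passed the filter there (circle), with the SD that counting alone gives (tick) and the median SD of all genes (dashed line). Slc2a2 in liver and Slc2a4 in gastrocnemius lie far left of the dashed line, and Irs1, Irs2 and Akt2 in liver far right of it.

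The libraries of germ cells and embryos cover whole transcripts, so levels of different genes were divided by exon length (CPM per kb). In round spermatids Slc2a3 was far above the other members. It stood at 144 to 179 CPM per kb (1040 to 1300 CPM), and no other member exceeded 8.25 per kb, the highest value of Akt2. Insr followed at 2.10 to 2.88 and Irs2 at 1.33 to 1.43 CPM per kb. Slc2a2 was present at 0.938 to 1.31, Slc2a1 at 0.425 to 0.59 and Slc2a4 at 0.351 to 0.526 CPM per kb, and Foxo1 (0.373 to 0.734) and Pik3r1 (0.215 to 0.354) were in the same low range. Irs1 was the lowest member, at 0.036 to 0.0723 CPM per kb (70 counts in 6 libraries).

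In the 6 morula libraries Slc2a1 and Slc2a3 were at like levels per length: Slc2a3 ran from 13.5 to 18.1 and Slc2a1 from 9.07 to 17.1 CPM per kb, although Slc2a3 has more CPM because its exons are longer. Foxo1 came next, at 6.45 to 9.43, followed by Akt2 at 3.23 to 6.04 CPM per kb, and only Foxo1 and Akt2 of these neighbours did not overlap. Insr and Irs2 were low (0.144 to 0.611 and 0.196 to 0.53). Irs1 had counts in 3 of the 6 libraries and Slc2a2 in none, which allows up to 0.0844 CPM over the HFD and 0.0846 CPM over the LFD libraries together.

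In sperm Slc2a3 had the highest median of the members on each diet, 6.79 CPM per kb on HFD and 8.16 on LFD, in a range of 4.46 to 17. Insr ran from 1.52 to 6.34, Pik3r1 from 1.77 to 6.10 and Slc2a1 from 0.525 to 6.45, all overlapping Slc2a3. Markers of epididymal epithelium were also present: of 4 genes 3 were in the table, and they summed to 1590 to 2600 CPM on library totals in HFD and 2470 to 23500 in LFD, of which Crisp1 made up nearly all. The library with the most Crisp1, the LFD library of 2560219 counts, also had the highest Insr (87.2 CPM) and Slc2a3 (123 CPM). The part of epididymal RNA in these levels was not tested.

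Paternal diet was compared in sperm for the 8 members that passed the filter; Slc2a2 (8 counts in all) and Slc2a4 (2 counts in all) did not. None of the 8 was called by edgeR's quasi-likelihood test, as were none of 8643 genes (0% called, smallest adjusted p = 0.232), while 1122 genes (13%) had an unadjusted p under 0.05, none of them a member. DESeq2 called 295 genes and limma-voom none. Foxo1 was the member with the largest difference. It stood at 2.41, 3.23 and 3.69 CPM on HFD and at 7.11, 7.46 and 8.42 on LFD, without overlap, from 5 to 7 counts per HFD library. Its log2 fold change was -1.31 ± 0.80 (SE, n = 3 per diet, edgeR adjusted p = 0.534). Pik3r1 stood at 17.8, 38.5 and 38.7 CPM on HFD and at 41, 48.2 and 61.5 on LFD, again without overlap (-0.66 ± 0.49, edgeR adjusted p = 0.612). Libraries of the diets did not overlap for 20.4% of all genes tested (8.12% higher and 12.3% lower on HFD), so 2 of 8 members is near the background.

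The other 6 overlapped. Insr was 20.9, 32.9 and 77.7 CPM on HFD against 24, 69 and 87.2 on LFD, with a log2 fold change of -0.44 (95% interval -1.71 to 0.83). Slc2a3 was 38.7, 49.2 and 69.4 CPM against 32.3, 59.1 and 123 (-0.45, interval -1.59 to 0.70). Akt2 was 4.3, 4.82 and 12.9 CPM against 6.81, 8.84 and 12.4 (-0.36, interval -1.96 to 1.23). All 3 intervals hold a 2-fold decrease, and that of Akt2 also a 2-fold increase, so differences of these sizes were not detectable at this depth and spread.

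The 3 remaining members had no settled direction. Irs1 was 5.5, 8.6 and 16.1 CPM on HFD against 7.46, 8.42 and 9.08 on LFD (0.26 ± 0.70). Irs2 was 5.17, 6.76 and 22.4 against 4.84, 8.42 and 12.7 (0.43 ± 0.75), and Slc2a1 was 1.84, 6.19 and 22.6 against 5.43, 10.5 and 12.6 (0.08 ± 0.83). For each, 1 HFD library lay above all LFD libraries; without it the log2 fold change turned negative (-0.27, -0.55 and -1.19). On library totals all 3 were negative too.

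Scaling matters in sperm more than anywhere else. mtDNA-encoded genes took 78.1 to 84.3% of the counts on HFD and 43.5 to 64.7% on LFD, and the TMM factors were 0.442 to 0.716 and 1.52 to 2.58. On library totals Foxo1 stood at 1.63 to 1.72 CPM on HFD and 11.3 to 18.4 on LFD, a log2 fold change of -3.06 ± 0.93 (edgeR adjusted p = 0.0213). Slc2a3 (-2.41), Pik3r1 (-2.30) and Insr (-2.17) were then called lower as well, as were 3265 of 8643 genes in all, and the median over all genes was -1.82 (-0.07 under TMM).

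In morula 7 members passed the filter, none was called, and none separated the diets (0% of 13447 genes called, 858 or 6.38% at an unadjusted p under 0.05, none a member). DESeq2 called 18 genes and limma-voom none, and libraries did not overlap for 12.1% of genes (5.94% higher and 6.18% lower). The embryo libraries were far tighter than sperm. Slc2a3 stood at 97.8, 110 and 121 CPM for HFD fathers and at 103, 124 and 131 for LFD fathers, a log2 fold change of -0.12 (95% interval -0.37 to 0.13, edgeR adjusted p = 0.909). Foxo1 was 57.8, 66.7 and 67.3 against 55.9, 69.6 and 81.7 (-0.11, interval -0.41 to 0.19). Pik3r1 was 24.7, 25.5 and 27.9 against 25.4, 26.7 and 34.4 (-0.15, interval -0.50 to 0.20). For these genes a change of 2-fold in either direction lies outside the interval.

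Slc2a1 was 31.8, 42.8 and 59.9 CPM for HFD fathers against 48.7, 53.8 and 58.1 (-0.26, interval -0.65 to 0.14), and Akt2 was 23, 38 and 41.3 against 38.6, 40 and 43.1 (-0.25, interval -0.65 to 0.15). In both, HFD libraries spread more widely. For Slc2a1 those at 31.8 and 42.8 CPM lay below every LFD library, and for Akt2 those at 23 and 38 CPM. Insr had the largest difference, with 1.98, 3.35 and 6.65 CPM against 5.54, 5.58 and 8.4 (-0.70, interval -1.60 to 0.19, edgeR adjusted p = 0.834, 25 to 98 counts per library). Irs2 was 2.06, 3.2 and 3.35 against 1.24, 2.74 and 3.01 (0.29, interval -0.76 to 1.35). Slc2a4, below the filter, had 8, 9 and 15 counts for HFD fathers and 2, 6 and 9 for LFD fathers. The free-text description of 3 morula samples gives the opposite diet to their title and treatment, and the latter were used.

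**Figure D5:**
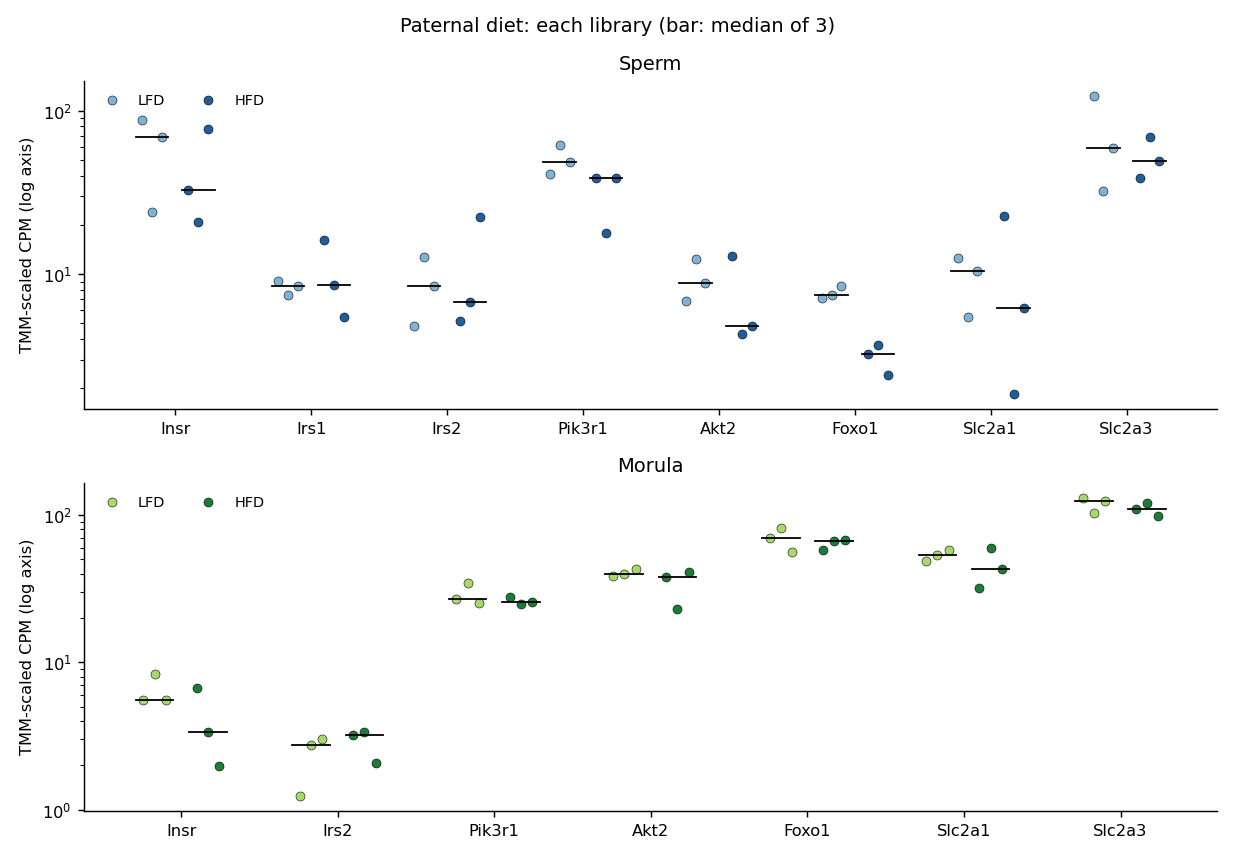
TMM-scaled CPM on a log axis in sperm (top, 8 members) and morula (bottom, 7 members), 3 libraries per diet (light: LFD, dark: HFD; bar: median of 3). In sperm only Foxo1 and Pik3r1 do not overlap between the diets, and in morula every member overlaps.

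Around the members, 62 further genes of the pathway were counted by role. Between liver and gastrocnemius 48 were tested, of which 11 were higher and 18 lower in liver, 29 of 48 called where 66.4% of all genes were. Over all genes 34.9% were called higher and 31.4% lower, and the counts by role below were not tested against these shares. Of 8 genes of GLUT4 traffic 6 were lower and none higher. The lower ones included the RAB GTPase-activating proteins Tbc1d1 (0.618 to 9.05 CPM in liver, 26.5 to 95.3 in gastrocnemius; -4.79 ± 0.44, edgeR adjusted p = 1.18e-09) and Tbc1d4 (1.46 to 8.40 against 38.1 to 60.1; -3.44 ± 0.28, edgeR adjusted p = 1.65e-10), which hold GLUT4 vesicles back until AKT acts on them, and the vesicle sorting receptor Sort1 (-2.47 ± 0.27, edgeR adjusted p = 2.38e-08). Grb10, an inhibitor that binds the receptor, was lower too (-3.19 ± 0.34, edgeR adjusted p = 1.56e-08). Of 12 inhibitors tested 6 were higher and 3 lower, the highest being the phosphatase Ptprf (126 to 158 CPM in liver against 0 to 10; 5.22 ± 0.57, edgeR adjusted p = 2.46e-08). Tbc1d1, Tbc1d4 and Grb10 passed the filter on low counts through tissues other than liver, and Ptprf through tissues other than gastrocnemius. They had to differ, so their p-values and the counts by role that hold them support nothing about the list. The growth factor Igf1 was at 1390 to 2030 CPM in liver and 9.95 to 51.4 in gastrocnemius (5.76 ± 0.31, edgeR adjusted p = 1.12e-13).

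Of 10 other sugar transporters 4 were tested between liver and gastrocnemius, with 2 higher in liver (34.9% of all genes), 1 lower (31.4%) and 1 not called. Slc2a5, the fructose transporter, had 175 counts in liver and none in gastrocnemius (at least 41-fold higher; edgeR adjusted p = 4.62e-05), and Slc2a9, a urate transporter, stood at 16.1 to 23.5 CPM in liver against 4 counts in all (ratio 39, exact 95% interval 15 to 145). Slc2a12, a further insulin-sensitive transporter, was lower, with no count in liver and 0 to 13.6 CPM in gastrocnemius (78 counts, edgeR adjusted p = 2.1e-07), and Slc2a8 was not called (0.72 ± 0.35, edgeR adjusted p = 0.0779). Slc2a5, Slc2a9 and Slc2a12 passed the filter on low counts through the tissues in which they are high. They had to differ, so their p-values and the counts that hold them support nothing about the list. In eWAT 21 of 22 counts of Slc2a5 lay in the library that stood apart; round spermatids hold Slc2a5 at 232 to 261 CPM per kb, above Slc2a3. The insulin genes themselves were not seen in the 3 tissues: Ins1 and Ins2 had no count in any of the 18 libraries.

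Liver and eWAT differed in 30 of the 48 tested genes (9 higher and 21 lower in liver), where 61.6% of all genes were called. Again 6 of 8 genes of GLUT4 traffic were lower (32.6% of all genes were), Sort1 most (-3.85 ± 0.27, edgeR adjusted p = 1.77e-11). Grb10 was at 0.973 to 3.67 CPM in liver and 40.9 to 96.3 in eWAT (-4.86 ± 0.31, edgeR adjusted p = 3.81e-12). Irs3, an adaptor of rodent fat, had 2 counts in liver and 4.35 to 9.86 CPM in eWAT (ratio 37.4, exact 95% interval 10.2 to 311), and Slc2a12 had none in liver (at least 6.3-fold higher in eWAT, edgeR adjusted p = 0.000262). Irs3 passed the filter on low counts through eWAT, so it too had to differ from the other tissues. Grb10, Tbc1d1 and Tbc1d4 passed it through tissues other than liver. Their p-values, and the count of GLUT4 traffic genes that holds Tbc1d1 and Tbc1d4, support nothing about the list. Higher in liver were Slc2a5 (ratio 19.8, exact 95% interval 12.7 to 32.4, with all but 1 of its eWAT counts in the library that stood apart), Slc2a9 (2.93 ± 0.28, edgeR adjusted p = 4.04e-09), and the inhibitors Enpp1 (2.73 ± 0.35, edgeR adjusted p = 4.59e-07) and Grb14 (2.48 ± 0.29, edgeR adjusted p = 9.02e-08).

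Between eWAT and gastrocnemius 16 of the 48 were higher and 10 lower in eWAT, where 41.1% and 26.3% of all genes were. Irs3 was at least 17.5-fold higher, having no count in muscle. The adaptor Sh2b2 (20.8 to 76.8 CPM against 0.489 to 3.32; 4.66 ± 0.41, edgeR adjusted p = 1.28e-09), Igf1 (3.86 ± 0.28, edgeR adjusted p = 5.05e-11) and Ptprf (3.75 ± 0.57, edgeR adjusted p = 4.83e-06) were higher as well, Ptprf with 159 CPM in the library that stood apart and 13.4 to 41.4 in the others (2.93 ± 0.34 without it, edgeR adjusted p = 2.59e-08). Irs3 and Sh2b2 passed the filter on low counts through eWAT, and Ptprf through tissues other than gastrocnemius. They had to differ, so their p-values and the counts that hold them support nothing about the list. Tbc1d1 (-2.72 ± 0.34), the IGF2-clearing receptor Igf2r (-1.66 ± 0.30), the adaptor Gab1 (-1.57 ± 0.34) and the mTORC1 inhibitor Tsc1 (-1.37 ± 0.22) were lower, the largest edgeR adjusted p of the 4 being 0.00035.

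With diet no gene of this list was called. In sperm 39 were tested, and the smallest p belonged to Grb10 (11.6, 14.4 and 34.4 CPM on HFD against 3.79, 4.09 and 4.52; 2.27 ± 0.67, edgeR adjusted p = 0.232) and Igf1 (19, 37.5 and 42.6 against 5.89, 7.26 and 12; 1.98 ± 0.58, edgeR adjusted p = 0.232). Both were without overlap under TMM, as were 4 genes higher and 4 lower of the 39 (8.12% and 12.3% of all genes), but on library totals they overlapped, Grb10 at 6.01 to 15.2 CPM on HFD and 5.9 to 10.5 on LFD, and Igf1 at 8.43 to 26.8 and 9.18 to 18.7. Markers of other cells had positive log2 differences under TMM too, none of them called: 1.49 to 1.62 for the 3 stroma genes, 1.08 to 2.65 for the 4 leukocyte genes tested and 1.51 to 2.32 for the 3 erythroid genes. On library totals their sums overlapped between HFD and LFD (stroma 22 to 169 and 50.1 to 113 CPM, leukocyte 53.6 to 73.9 and 62.1 to 95.3, erythroid 96 to 179 and 26.6 to 143). Under TMM the haploid germ cell genes Odf1 (2.00), Prm1 (1.36), Tnp1 (1.22) and Prm2 (1.20) were positive as well. Crisp1 of epididymal epithelium was negative (-0.53), and none of these was called. The part of other cells in Grb10 and Igf1 was not tested. In morula 45 were tested, among them Lnpep, an aminopeptidase of GLUT4 vesicles, whose libraries did not overlap between the diets (45.9, 51.6 and 54.2 CPM for HFD fathers against 59.9, 61.6 and 67.3; -0.32 ± 0.12, edgeR adjusted p = 0.705).

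Finally, genes with the most similar pattern over the 18 tissue libraries were found for each member by Pearson's r of log2 CPM among 10850 genes, as a description, since the points share tissues. Slc2a2 went with Gm4952, Fga and Crp (r = 0.998, 0.997 and 0.997), of which Fga and Crp encode proteins that liver secretes. Slc2a4 went with Fsd2, Hk2 and Clic5 (0.997, 0.991 and 0.987), of which Hk2 phosphorylates glucose in muscle. Akt2 went with Eif4ebp1 (0.921), a translation repressor controlled by mTOR, and Irs1 with Gfpt1 (0.925), the first enzyme of the hexosamine pathway. The leading genes were Xiap for Insr (0.893), Uba6 for Pik3r1 (0.904), S1pr1 for Irs2 (0.846), Clec1a for Foxo1 (0.833) and Cbr2 for Slc2a3 (0.964). Slc2a1 had the lowest leading r, with Usp20 (0.706). Antisense or overlapping transcripts on the opposite strand share exon bases with Irs1, Irs2, Foxo1 and Slc2a1. The strand setting of the counting is not given in the sources used here, so reads of such pairs may be mixed.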

How the data were processed

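RNA was sequenced from sperm, morulae and round spermatids (Nextera libraries of whole transcripts) and from liver, eWAT and gastrocnemius (QuantSeq 3' libraries, whose levels were not compared between genes). The authors deposited raw counts per gene, obtained by BBDuk trimming, STAR alignment (GRCm38) and featureCounts. The strand setting is not given in the sources used here. Columns of the tissue and round spermatid tables carry only a number and were placed by their table. No column of per-sample values was left unused (0), and 54723 of 54838 identifiers had a symbol.

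Genes passing filterByExpr (minimum count 10) were fitted with edgeR 4.0.16 (TMM, quasi-likelihood F test, R 4.3.3), the 3 tissues in 1 fit and sperm and morula each alone. P-values were adjusted by Benjamini-Hochberg over all genes tested, with a threshold of 0.05. SE is the size of the log2 fold change divided by the square root of F, and log2 CPM used a prior count of 2. A group without a count was given a floor of 3 counts, and ratios of summed counts an exact 95% interval. Floors and intervals cover counting error only. Alternatives were library totals, DESeq2 1.42.0 with its size factors, limma 3.58.1 (voom), no filter, mtDNA-encoded genes left out, only the compared tissues, and libraries left out. The scripts were tested on simulated data. Summaries used Python 3.11.15, pandas 2.3.3, numpy 2.4.6 and scipy 1.17.1, and plots matplotlib 3.10.9. Promoters were from RefSeq (GRCm38.p6).

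All 10 members were named, together with, in each tissue comparison, the 4 pathway genes of largest fold change in each direction past the threshold without overlap, the 2 of smallest p in sperm and in morula, and the genes of highest r for each member. One result that this rule names is not reported here. The members and lists were chosen with earlier results of these data known. Sperm libraries share the numbers 1000 and 4000 between diets. Their correlations of deviations were 0.108 and -0.168, against -0.263 to 0.301 for libraries of unlike number. So few values cannot tell whether the numbers mark pairs.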

Additional observations from a re-analysis of the deposited data

Results flagged for a closer look

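For 37 pairs of a member and a group of 6 libraries the highest and lowest library were tested for standing apart, which chance gives in about 1 of 20. The pairs found, described below, are about as many as that share gives. Slc2a1 in eWAT had a highest library of 40.4 CPM, the library of 3512177 counts, against 10.2 to 14.8 in the other 5, a gap of 0.848 of the whole range. The same library held the most Prm1 and Ptprf and the least Adipoq, Insr, Irs1, Irs2 and Akt2 of the eWAT libraries. Pik3r1 in round spermatids had a highest library of 3.57 CPM, the library of 20138842 counts (74 counts), against 2.17 to 2.65 in the other 5, a gap of 0.657 of the range. The cause of either was not tested.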

How the results depend on the processing

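Scaling to library totals changed most. In sperm 3266 genes were then called (0 by TMM), and Irs1 (-1.57), Slc2a1 (-1.76) and Irs2 (-1.04) turned negative. In liver over eWAT Slc2a1 (-0.777) and Insr (-0.626) turned negative, and in eWAT over gastrocnemius Slc2a3 turned positive (0.495). Without a filter on low counts 41 genes were called in sperm and 63 in morula, and 7533 with a log2 fold change of at least 1 in liver over eWAT. DESeq2 called 295 genes in sperm and 18 in morula. Slc2a1 in sperm was -0.0826 without a filter and -0.488 by limma-voom, and in eWAT over gastrocnemius -0.037 without mtDNA-encoded genes, -0.0129 by limma-voom and -0.365 without the eWAT library with the most Prm1, an alternative added after seeing the data. Without it the SD in eWAT was 0.237 for Insr, 0.259 for Irs2, 0.218 for Akt2 and 0.233 for Slc2a1. The cause was not tested.

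Leaving out 1 library at a time gave 0 to 0 calls in sperm and 0 to 2 in morula, the 2 coming without the HFD library of 11776603 counts. The sperm log2 fold changes then ran from -0.27 to 0.555 (Irs1), -1.19 to 0.565 (Slc2a1), -0.708 to 0.222 (Slc2a3) and -0.549 to 0.877 (Irs2), and those of morula from -0.247 to 0.0241 (Foxo1) and -0.00903 to 0.518 (Irs2).

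With the replicate block by shared number, 2 genes were called in sperm, and Slc2a1 (-0.126) and Irs2 (-0.398) turned negative. For the other comparisons, no paired analysis was possible because the morula groups share no number in the columns and the tissue columns name no animal. Whether liver, eWAT and gastrocnemius came from the same animals is not given. The fit treated the tissue libraries as independent. Of the members' values under the alternatives, 396 kept direction and side of the threshold, 20 reversed, 14 newly passed it and 3 no longer did. Depth limits Foxo1 in sperm (5 to 7 counts on HFD) and Irs1 in the gastrocnemius library of 369772 counts (5 counts).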
